A study of Mus musculus with 12 samples.

Results

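The liver X receptor (LXR) and cholesterol efflux genes were 10 genes picked by symbol from the 55335 rows of the expression table, and all 10 were expressed highly enough to be tested. They comprised the receptors Nr1h3 and Nr1h2, the sterol transporters Abca1 and Abcg1, the lipoprotein acceptor Apoe, the further LXR target genes Srebf1, Mylip and Lpcat3, and the sterol-modifying enzymes Soat1 and Ch25h. Bulk RNA-seq had been done on bone marrow-derived macrophages (BMDMs), cells obtained by culturing marrow progenitors with the growth factor M-CSF. There were 12 libraries in 4 groups of 3: wild-type C57BL/6 BMDMs without stimulation (WT control), wild-type BMDMs given lipopolysaccharide (LPS) followed by ATP (WT LPS+ATP), and Nlrp3-/- BMDMs handled in the same 2 ways (Nlrp3-/- control and Nlrp3-/- LPS+ATP). The knockout was a global one, so Nlrp3 was absent from every cell of the culture and not from macrophages alone. Per the labels, LPS was given for 4 hours and ATP for 30 min, whereas the study's culture methods give 200 ng/ml LPS for 12 hours and 3 mM ATP for 2 hours, with cells from 8-week-old mice. LPS with ATP is a standard way to prime and then trigger the NLRP3 inflammasome, and the design asks how the response of these macrophages depends on NLRP3.

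LXRs are nuclear receptors that sit on DNA as heterodimers with the retinoid X receptors and are switched on by oxysterols, the oxidised products of cholesterol. In macrophages they drive the genes that move surplus cholesterol out of the cell, above all the transporters ABCA1 and ABCG1 and the acceptor protein apolipoprotein E, and they also limit uptake by inducing the ubiquitin ligase MYLIP. Cholesterol that is not exported is stored as esters by SOAT1, and CH25H makes 25-hydroxycholesterol, an oxysterol that can activate LXR and blocks sterol synthesis.

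LXR dimers recognise direct repeats of the 6-letter unit AGGTCA separated by 4 free bases, a pattern called DR4. RefSeq promoter windows (build GRCm38.p6, 250 bases before to 50 bases after each annotated start) were found for 9 of the 10 genes, in 14 windows, with Abcg1 having no entry. No window held a DR4 with up to 2 mismatches over its 12 fixed letters on either strand, a match present in 3.02% of all 32817 windows. With 3 mismatches allowed, a limit added after that search, 2 of the 14 windows (14.3%) held a match, against 21.9% of all windows. The matches lay in Abca1, and in the third of the 3 Srebf1 windows. They are shown because they are the only DR4-like stretches found in these windows, with the 16-base match in capitals on the strand of the gene:
Abca1, chr4:53159917-53159992, minus strand: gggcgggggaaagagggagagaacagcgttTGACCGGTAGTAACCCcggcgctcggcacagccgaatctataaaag
Srebf1, chr11:60210608-60210683, minus strand: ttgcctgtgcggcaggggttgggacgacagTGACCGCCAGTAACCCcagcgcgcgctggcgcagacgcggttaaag
The capitals begin 67 bases before the Abca1 start and 182 bases before the Srebf1 start, both read as DR4 on the strand opposite to the gene, and 14 of their 16 letters are identical. A match to these letters is a description of the window and not evidence of binding, and the 2 genes that carry it behaved differently in the libraries, as given below.

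The values were FPKM, that is fragment numbers scaled by transcript length and library size, so levels can be roughly compared between genes. Comparisons between libraries also depend on how the libraries are scaled, as given below. The 12622 genes that reached 1 FPKM in 3 or more libraries were fitted together with limma on log2(FPKM + 1), and p-values were adjusted by the Benjamini-Hochberg method over all of them. Fold changes are on this scale, which understates the change of genes near 1 FPKM. A gene passed the test at an adjusted p under 0.05, and was called a differentially expressed gene (DEG) if it also changed by at least 1 on the log2 scale. The 12 libraries had FPKM sums between 283278 and 299393. The depth in reads is not given in the sources used here, but the step between low values put the deepest library at 1.218 times the shallowest. Correlations between libraries of the same group were 0.99 to 0.993 over the tested genes. The labels do not say whether the 3 libraries of a group came from separate animals or cultures, so the p-values measure only the spread between these libraries.

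Nlrp3 itself was listed at 0 in all 6 Nlrp3-/- libraries, against 9.24 to 10.1 FPKM in WT control and 32.1 to 33.6 in WT LPS+ATP. The genotypes differed in more than Nlrp3. Xist ran from 32.8 to 56.3 FPKM in Nlrp3-/- BMDMs and did not exceed 0.0416 in wild-type, and the Y-linked Ddx3y, Eif2s3y, Kdm5d and Uty were at 0 in every Nlrp3-/- library, so sex and genotype cannot be told apart. Nnt, a gene known to differ between C57BL/6 substrains, was at 7.67 to 10.3 FPKM in WT control and 0.827 to 1.47 in Nlrp3-/- control. The summed FPKM of 7 fibroblast markers was 162 to 168 in WT control, 191 to 193 in WT LPS+ATP, 1190 to 1200 in Nlrp3-/- control and 927 to 942 in Nlrp3-/- LPS+ATP. That of 7 neutrophil and granulocyte precursor markers was 238 to 271, 312 to 323, 1410 to 1460 and 631 to 636 in the same order, with Ly6g too low to be tested. The rise of this sum in wild-type came from Lcn2 (a mean of 9.96 to 218 FPKM), while the other 5 tested markers fell, among them S100a9 (160 to 49.9) and S100a8 (69.8 to 42.6). The 6 macrophage markers were all expressed, but their sums of 18800 to 21000 in the control groups and 10500 to 11200 with LPS+ATP were nearly all Lyz2 (means of 18500 FPKM in WT control, 9470 in WT LPS+ATP, 17700 in Nlrp3-/- control and 9310 in Nlrp3-/- LPS+ATP). Of the others, Cd68 (1450 and 877 FPKM), Csf1r (253 and 164), Adgre1 (237 and 184) and Fcgr1 (51.2 and 38.5) were lower in Nlrp3-/- than in WT control and passed the test. With stimulation Adgre1 and Fcgr1 rose in both genotypes while the sum and Cd68 fell. Csf1r fell in wild-type (253 to 178) and rose slightly in Nlrp3-/- (164 to 176). Itgam did not pass the test in any comparison. With LPS+ATP, Cd68, Adgre1 and Fcgr1 were again lower in Nlrp3-/-, while the difference of Csf1r (178 and 176) did not pass the test. The part that these differences play in the genotype comparisons below was not tested, and in bulk RNA fewer cells of a type and less RNA per cell cannot be told apart. Scaling mattered as well. Among all tested genes the median stimulation change was -0.25 (log2) in wild-type and -0.24 in Nlrp3-/- BMDMs, and rescaling the libraries by the median ratio of the genes raised these by 0.25 and 0.23, while it moved the genotype medians by -0.12 in control and -0.15 with LPS+ATP. DEGs that were higher made up 42.5% of those in wild-type stimulation and 44.7% in Nlrp3-/- stimulation with the FPKM as deposited, but 61.5% and 64.4% after median-ratio scaling and 52.9% with upper-quartile scaling in wild-type. Changes of about 0.25 or less in the stimulation comparisons therefore depend on the scaling. Single genes of the 10 could shift by more. Under median-ratio scaling Abcg1 went from -0.08 to 0.23 in wild-type, and Apoe from -0.25 to 0.04 in Nlrp3-/-.

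**Figure D1:**
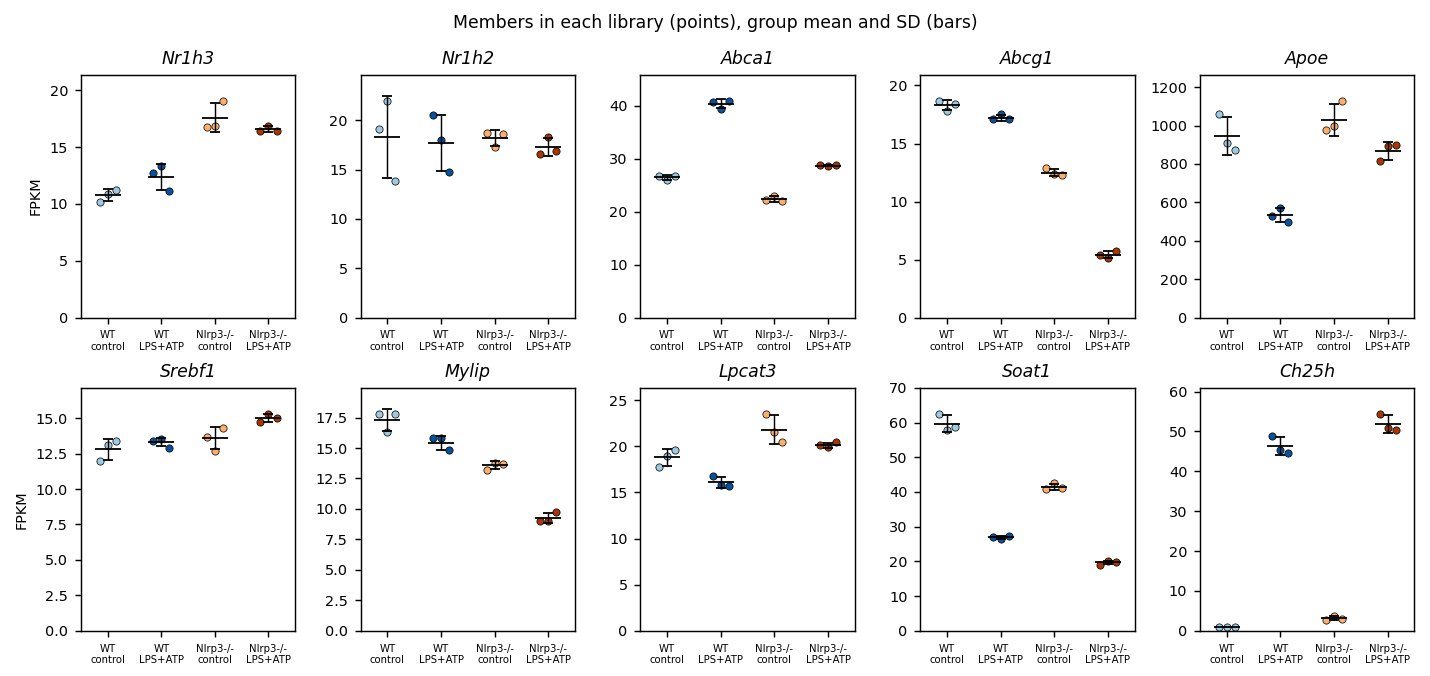
FPKM of the 10 genes in each library (points, 3 per group), with the group mean and SD as black bars, on linear axes that start at 0. Abcg1 and Mylip are lowest in Nlrp3-/- LPS+ATP, Abca1 is highest in WT LPS+ATP, and Ch25h is at 0.972 to 3.65 FPKM in the control libraries and at 44.7 to 54.4 with LPS+ATP.

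Stimulation of wild-type BMDMs strongly induced Ch25h, lowered Soat1 and Apoe, and raised Abca1, while the change of Abcg1 did not pass the test with the FPKM as deposited. Of the 10 genes, Ch25h was the only DEG that was higher, against 8.25% of all tested genes called in that direction, and Soat1 the only DEG that was lower, against 11.2%. At an adjusted p under 0.05, 3 genes rose and 4 fell with the FPKM as deposited, against 6 and 2 after median-ratio scaling. For all tested genes 76.4% passed in either direction, so 7 of 10 is close to that background. The median change of the 10 was -0.06 (log2), beside -0.25 over all tested genes. For Nlrp3-/- BMDMs the DEGs were Ch25h, higher (6.64% of all tested genes), and Abcg1 and Soat1, lower (8.21%). Again 3 rose and 4 fell at an adjusted p under 0.05 (5 and 3 after median-ratio scaling), with 74.3% of all tested genes passing, and the median was -0.09 beside -0.24.

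Between genotypes, Ch25h was the only DEG among the 10 in control cells (higher in Nlrp3-/-, against 6.02% of all tested genes, and none lower, against 0.689%). With LPS+ATP, Abcg1 was the only DEG (lower in Nlrp3-/-, against 0.57%, and none higher, against 4.48%). At an adjusted p under 0.05, 3 genes were higher and 4 lower in Nlrp3-/- control cells, where 47.8% of all tested genes passed, and 4 were higher and 4 lower with LPS+ATP, where 48.5% passed. After median-ratio scaling 2 were higher and 4 lower in both. The difference between the genotypes in their stimulation change (the interaction) gave 0 DEGs among the 10 by limma, against 0.721% of all tested genes called higher and 1.43% called lower. At an unadjusted p under 0.05 there were 6 genes, and 5 of them passed the adjusted test (Abca1, Abcg1, Mylip and Ch25h in the negative and Apoe in the positive direction), where 27.7% of all tested genes passed. Abcg1 missed the fold limit narrowly, at -0.996.

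**Figure D2:**
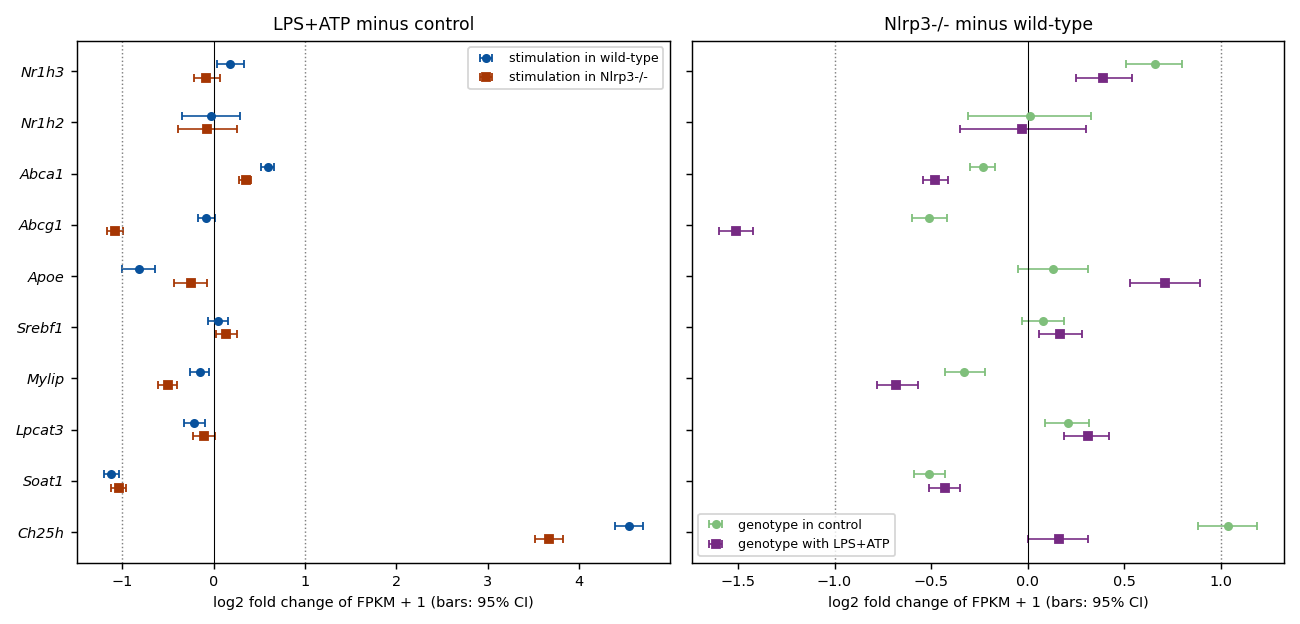
Log2 fold changes of FPKM + 1 with 95% confidence intervals (bars) for the 10 genes. The left plot gives LPS+ATP minus control in wild-type (circles) and Nlrp3-/- (squares), and the right plot gives Nlrp3-/- minus wild-type in control (circles) and LPS+ATP (squares), with dotted lines at the fold limit of 1. Abcg1 lies at -0.08 and -1.08 in the left plot and at -0.51 and -1.51 in the right plot.

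Nr1h3 (ENSMUSG00000002108, chromosome 2) encodes LXRα, the receptor that is enriched in macrophages, liver and fat. It stood at 10.2, 10.9 and 11.2 FPKM in WT control and at 12.7, 13.3 and 11.1 in WT LPS+ATP. In Nlrp3-/- BMDMs it stood at 16.8, 16.9 and 19.1 in control and at 16.4, 16.9 and 16.4 with LPS+ATP. Every Nlrp3-/- library was above every wild-type library. The genotype difference was 0.66 ± 0.067 (log2, SE, n = 3 a group) in control, or 1.58-fold (limma adjusted p = 8.5e-06), and 0.39 ± 0.067 with LPS+ATP (limma adjusted p = 0.0004883). It kept its direction under median-ratio scaling, at 0.51 and 0.22. The stimulation change was 0.18 ± 0.067 in wild-type (limma adjusted p = 0.02622), a call lost when WT control replicate 1 (0.15), WT LPS+ATP replicate 1 (0.16) or WT LPS+ATP replicate 2 (0.13) was left out, with no filter (limma adjusted p = 0.05414) and when the compared groups were fitted alone (limma adjusted p = 0.05437). It was 0.35 under upper-quartile and 0.49 under median-ratio scaling, where it passed the test. In Nlrp3-/- BMDMs it was -0.08 ± 0.067 (limma adjusted p = 0.3084) and had the opposite sign under median-ratio scaling (0.2). Whether the stimulation change of Nr1h3 differed between genotypes was not settled, since the interaction of -0.26 ± 0.094 had a limma adjusted p of 0.06216 with the FPKM as deposited and of 0.04557 after median-ratio scaling, 0.03622 after upper-quartile scaling and 0.014 without WT LPS+ATP replicate 3.

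Nr1h2 (ENSMUSG00000060601, chromosome 7) encodes LXRβ, the receptor found in nearly all cell types. Its libraries ran from 13.8 to 22 FPKM in WT control and from 14.8 to 20.5 in WT LPS+ATP, but only from 17.3 to 18.7 in Nlrp3-/- control and from 16.6 to 18.3 in Nlrp3-/- LPS+ATP. The 4 groups overlapped throughout. None of its changes passed the test. The stimulation changes were -0.03 (95% CI -0.35 to 0.29) in wild-type and -0.07 (95% CI -0.39 to 0.25) in Nlrp3-/-, and the genotype differences were 0.01 (95% CI -0.31 to 0.33) in control and -0.03 (95% CI -0.35 to 0.3) with LPS+ATP, so changes of up to about 0.3 in either direction were not detectable at this spread. Their signs changed with the scaling or with the library left out. Within a library, the ratio of Nr1h3 to Nr1h2 was 0.614 ± 0.172 (SD, n = 3) in WT control, 0.706 ± 0.0724 in WT LPS+ATP, 0.969 ± 0.0644 in Nlrp3-/- control and 0.962 ± 0.0344 in Nlrp3-/- LPS+ATP. This ratio, and those that follow, were chosen after the values were seen and carry no test.

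Abca1 (ENSMUSG00000015243, chromosome 4) encodes the transporter that hands phospholipid and cholesterol to lipid-poor apolipoprotein A-I. It stood at 26.8, 26 and 26.8 FPKM in WT control and rose to 40.8, 39.4 and 41 in WT LPS+ATP. In Nlrp3-/- BMDMs it rose from 22.3, 23 and 22 in control to 28.9, 28.6 and 28.8 with LPS+ATP. No 2 of the 4 groups overlapped, and their order was Nlrp3-/- control, WT control, Nlrp3-/- LPS+ATP and WT LPS+ATP. The rise was 0.59 ± 0.03 in wild-type, or 1.5-fold (limma adjusted p = 8.602e-09), and 0.35 ± 0.03 in Nlrp3-/-, or 1.27-fold (limma adjusted p = 1.143e-06). The rise was thus smaller in Nlrp3-/- BMDMs, with an interaction of -0.24 ± 0.043 (limma adjusted p = 0.001706). The genotype difference was -0.23 ± 0.03 in control (limma adjusted p = 6.548e-05) and -0.48 ± 0.03 with LPS+ATP (limma adjusted p = 2.211e-07). All of these kept their direction and passed the test under median-ratio scaling, where the rises were 0.91 and 0.63.

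Abcg1 (ENSMUSG00000024030, chromosome 17) encodes the transporter that loads cholesterol onto mature high-density lipoprotein, and it is among the most LXR-responsive genes of macrophages. It stood at 18.7, 17.8 and 18.4 FPKM in WT control and at 17.1, 17.5 and 17.1 in WT LPS+ATP. In Nlrp3-/- control it stood at 12.9, 12.4 and 12.3, and in Nlrp3-/- LPS+ATP at 5.41, 5.12 and 5.7. The 4 groups did not overlap, although the WT pair lay within 1 FPKM of each other at their nearest libraries. The stimulation change was -0.08 ± 0.041 in wild-type (95% CI -0.17 to 0.01, limma adjusted p = 0.08413), with the opposite sign and past the test under median-ratio scaling (0.23, limma adjusted p = 0.0002916). Abcg1 fell in Nlrp3-/- BMDMs by 1.08 ± 0.041 (limma adjusted p = 7.14e-10), a fall that passed the test but not the fold limit under upper-quartile (-0.96) and median-ratio scaling (-0.81). The interaction was -0.996 ± 0.057 (95% CI -1.12 to -0.87, limma adjusted p = 6.543e-07), and Abcg1 became a DEG of the interaction under median-ratio scaling (-1.04), with 0.1 in place of 1 as the pseudocount (-1.11) and when any of 6 libraries was left out. Abcg1 was 0.701-fold in Nlrp3-/- against WT control (-0.51 ± 0.041, limma adjusted p = 1.045e-06) and 0.352-fold with LPS+ATP (-1.51 ± 0.041, limma adjusted p = 2.917e-10).

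The 2 transporters therefore diverged. The ratio of Abca1 to Abcg1 within a library was 1.45 ± 0.0123 (SD, n = 3) in WT control and 2.35 ± 0.0812 in WT LPS+ATP. It was 1.79 ± 0.0679 in Nlrp3-/- control and reached 5.32 ± 0.267 in Nlrp3-/- LPS+ATP, with libraries at 5.33, 5.58 and 5.05. A ratio of 2 genes within a library does not depend on the scaling of that library. Among the 10 genes and over the 12 libraries, the pattern of Abcg1 was most like that of Mylip (Pearson r = 0.98 of log2(FPKM + 1)), and those of Abca1 and Apoe ran most opposite to each other (r = -0.96), together with Soat1 and Ch25h (r = -0.96). These correlations describe libraries that fall into 4 groups and share them.

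**Figure D3:**
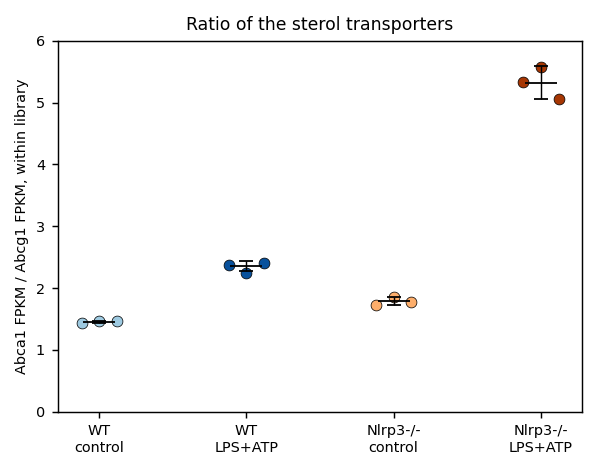
Abca1 FPKM divided by Abcg1 FPKM within each library (points, 3 per group), with the group mean and SD as black bars, on an axis that starts at 0. The Nlrp3-/- LPS+ATP libraries sit between 5.05 and 5.58 and those of the other 3 groups between 1.44 and 2.4.

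Apoe (ENSMUSG00000002985, chromosome 7) encodes apolipoprotein E, a secreted acceptor for exported cholesterol, and it was by far the most abundant of the 10 genes in every group, above 99.5% or more of the tested genes. It stood at 1060, 907 and 870 FPKM in WT control and at 531, 572 and 496 in WT LPS+ATP. In Nlrp3-/- it stood at 977, 997 and 1130 in control and at 815, 894 and 899 with LPS+ATP. The WT LPS+ATP libraries were below all others. Apoe fell by 0.82 ± 0.082 with stimulation in wild-type (0.566-fold, limma adjusted p = 2.797e-06). In Nlrp3-/- it fell by 0.25 ± 0.082 (limma adjusted p = 0.01663), and that call was lost under upper-quartile scaling (-0.12), reversed in sign under median-ratio scaling (0.04) and lost as TPM (-0.19) and without Nlrp3-/- LPS+ATP replicate 1 (-0.2) or Nlrp3-/- control replicate 3 (-0.18). The interaction was 0.57 ± 0.12 (limma adjusted p = 0.003692) and remained at 0.54 under median-ratio scaling. With LPS+ATP Apoe was 1.63-fold in Nlrp3-/- against wild-type (0.71 ± 0.082, limma adjusted p = 2.746e-05). In control cells the difference was 0.13 (95% CI -0.05 to 0.31, limma adjusted p = 0.2072), which passed the test only without WT control replicate 1 (0.22).

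Mylip (ENSMUSG00000038175, chromosome 13) encodes the ubiquitin ligase also known as IDOL, which limits the uptake of lipoproteins. It stood at 17.8, 16.3 and 17.8 FPKM in WT control, at 15.8, 15.8 and 14.8 in WT LPS+ATP, at 13.2, 13.8 and 13.7 in Nlrp3-/- control and at 9.04, 9.04 and 9.78 in Nlrp3-/- LPS+ATP. The groups stood in the same order as for Abcg1 and none overlapped. The wild-type stimulation change was -0.15 ± 0.048 (limma adjusted p = 0.01248) with the FPKM as deposited and 0.16 under median-ratio scaling (limma adjusted p = 0.01215), so its direction depends on the scaling, and it missed the test as TPM (-0.11) and without WT LPS+ATP replicate 3 (-0.12). Mylip fell in Nlrp3-/- BMDMs by 0.5 ± 0.048 (limma adjusted p = 2.306e-06), and by 0.23 under median-ratio scaling. The interaction was -0.35 ± 0.067 (limma adjusted p = 0.002868). Mylip was lower in Nlrp3-/- than in wild-type by -0.33 ± 0.048 in control (limma adjusted p = 0.0001575) and by -0.68 ± 0.048 with LPS+ATP (limma adjusted p = 4.87e-07).

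Srebf1 (ENSMUSG00000020538, chromosome 11) encodes SREBP-1, the transcription factor of fatty acid synthesis, whose SREBP-1c form is an LXR target. The gene-level values do not separate the SREBP-1a and SREBP-1c transcripts. Its 12 libraries spanned only 12 to 15.3 FPKM, with means of 12.8 in WT control, 13.3 in WT LPS+ATP, 13.6 in Nlrp3-/- control and 15 in Nlrp3-/- LPS+ATP. The first 3 groups overlapped and the Nlrp3-/- LPS+ATP libraries, at 14.7, 15.3 and 15, were above them. The stimulation change was 0.05 ± 0.05 in wild-type (95% CI -0.06 to 0.16, limma adjusted p = 0.4133), and 0.35 with a limma adjusted p of 5.498e-05 under median-ratio scaling. In Nlrp3-/- it was 0.14 ± 0.05 (limma adjusted p = 0.02585), which missed the test without Nlrp3-/- control replicate 2 (0.1), Nlrp3-/- LPS+ATP replicate 2 (0.13) or Nlrp3-/- LPS+ATP replicate 3 (0.14) and was 0.26 under upper-quartile and 0.41 under median-ratio scaling. The genotype difference with LPS+ATP was 0.17 ± 0.05 (limma adjusted p = 0.01626) and -0.01 under median-ratio scaling, and it missed the test under upper-quartile scaling (0.06) and without WT LPS+ATP replicate 3 or Nlrp3-/- LPS+ATP replicate 2 (0.15 each). The interaction was 0.09 (95% CI -0.06 to 0.25). Abca1 and Srebf1, the genes with the DR4-like stretches, thus both moved upward with stimulation but by different amounts. Abca1 passed the test in both genotypes under every scaling, at 0.91 and 0.63 under median-ratio scaling. Srebf1 was at 0.35 and 0.41 there, and its wild-type change passed only after upper-quartile (0.21) or median-ratio scaling. Abca1 was also lower in Nlrp3-/- than in wild-type, and no such difference passed for Srebf1.

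Lpcat3 (ENSMUSG00000004270, chromosome 6) encodes the lysophospholipid acyltransferase that puts polyunsaturated fatty acids into membrane phospholipids. It stood at 17.8, 18.9 and 19.6 FPKM in WT control, at 16.8, 15.8 and 15.7 in WT LPS+ATP, at 23.5, 21.5 and 20.4 in Nlrp3-/- control and at 20.1, 19.9 and 20.4 in Nlrp3-/- LPS+ATP. The stimulation change was -0.21 ± 0.053 in wild-type (limma adjusted p = 0.003763) and -0.11 ± 0.053 in Nlrp3-/- (limma adjusted p = 0.08183), both with the opposite sign under median-ratio scaling (0.1 and 0.17). Under upper-quartile scaling the wild-type change missed the test (-0.04), and without Nlrp3-/- control replicate 3 that in Nlrp3-/- passed it (-0.15). Lpcat3 was higher in Nlrp3-/- than in wild-type by 0.21 ± 0.053 in control (limma adjusted p = 0.007672) and by 0.31 ± 0.053 with LPS+ATP (limma adjusted p = 0.0005947), with neither passing the test under median-ratio scaling (0.06 and 0.13) and that in control missing it under upper-quartile scaling (0.14). The interaction was 0.1 (95% CI -0.07 to 0.27). Lpcat3 overlaps Emg1 on the opposite strand (GENCODE M21), which was at 5.13 to 6.47 FPKM in the group means, and whether the counting used strand is not given in the sources used here. Annotated genes that overlap other members (Nr1h3, Abcg1, Srebf1, Soat1 and Ch25h) were at group means of at most 2.12 FPKM, reached by Rai1 opposite Srebf1.

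Soat1 (ENSMUSG00000026600, chromosome 1) encodes the enzyme that esterifies cholesterol for storage in lipid droplets. It fell from 62.5, 57.9 and 58.6 FPKM in WT control to 26.9, 26.6 and 27.2 in WT LPS+ATP, and from 41, 42.5 and 41.1 in Nlrp3-/- control to 19.1, 20.1 and 19.9 in Nlrp3-/- LPS+ATP. None of the 4 groups overlapped. The fall was 0.46-fold in wild-type (-1.12 ± 0.036, limma adjusted p = 1.168e-10) and 0.487-fold in Nlrp3-/- (-1.04 ± 0.036, limma adjusted p = 3.176e-10). Both passed the test but not the fold limit under upper-quartile scaling (-0.95 and -0.91) and median-ratio scaling (-0.8 and -0.75). The interaction was 0.08 (95% CI -0.03 to 0.19, limma adjusted p = 0.2638), so a difference between the genotypes of more than 0.19 lies outside the interval. Soat1 was lower in Nlrp3-/- than in wild-type in control (-0.51 ± 0.036, limma adjusted p = 3.623e-07) and with LPS+ATP (-0.43 ± 0.036, limma adjusted p = 1.879e-06). The ratio of Soat1 to Abca1 within a library was 2.25 ± 0.0749 in WT control and 1.85 ± 0.0166 in Nlrp3-/- control, and 0.666 ± 0.00813 and 0.686 ± 0.0206 with LPS+ATP, so the transcript of the exporter passed that of the storage enzyme in both genotypes.

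Ch25h (ENSMUSG00000050370, chromosome 19) encodes cholesterol 25-hydroxylase and is known as an interferon-inducible gene of macrophages. It was near the filter in WT control, at 1.03, 0.972 and 1.06 FPKM, and reached 48.9, 45.4 and 44.7 in WT LPS+ATP. In Nlrp3-/- BMDMs it went from 2.77, 3.65 and 3.07 to 54.4, 50.8 and 50.4. It moved from the lowest of the 10 genes in both control groups to the second highest, after Apoe, in both stimulated groups. The rise was 4.55 ± 0.07 in wild-type (limma adjusted p = 2.769e-13) and 3.67 ± 0.07 in Nlrp3-/- (limma adjusted p = 2.14e-12), which correspond to ratios of the mean FPKM of 45.4 and 16.4. The interaction was -0.88 ± 0.099 (limma adjusted p = 7.336e-05) with a pseudocount of 1 and -1.37 with 0.1. The genotypes differed before stimulation, by 1.04 ± 0.07 (limma adjusted p = 2.832e-07) or 3.1-fold in mean FPKM, a difference that passed the test but not the fold limit under median-ratio scaling (0.9) and that was not a DEG without Nlrp3-/- control replicate 2. With LPS+ATP the difference was 0.16 ± 0.07 (limma adjusted p = 0.08419). It passed the test without Nlrp3-/- control replicate 1 (limma adjusted p = 0.04738) or replicate 2 (limma adjusted p = 0.02545) and when the compared groups were fitted alone (limma adjusted p = 0.02938), and was -0.03 under median-ratio scaling.

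**Figure D4:**
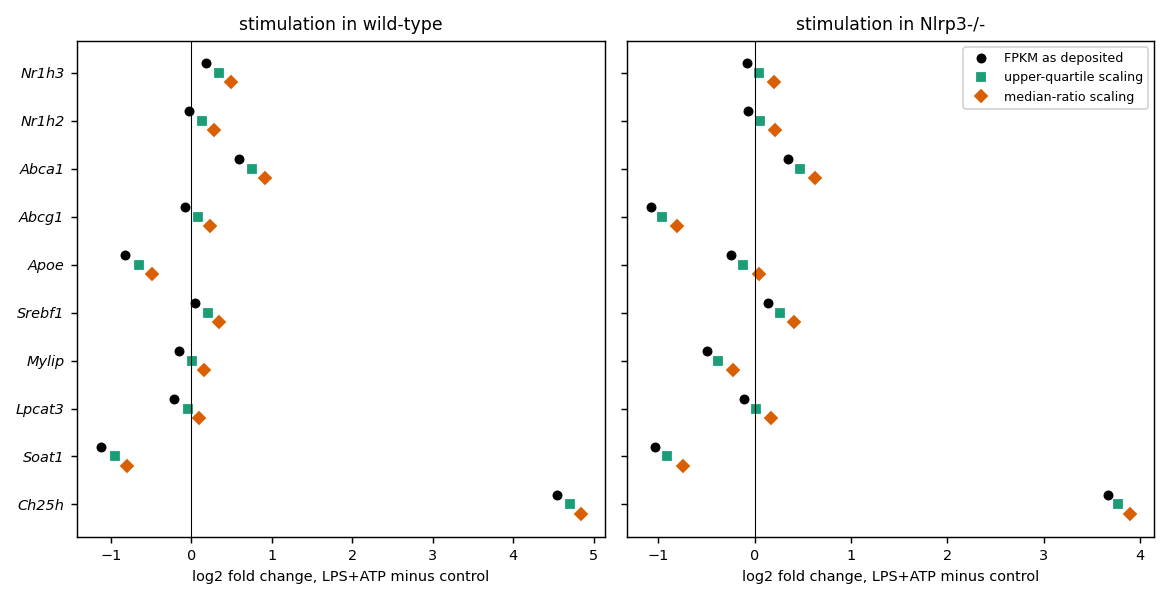
Log2 fold change of the 10 genes with LPS+ATP against control in wild-type (left) and Nlrp3-/- BMDMs (right), with FPKM as deposited (circles), upper-quartile scaling (squares) and median-ratio scaling (diamonds). Each rescaling moves all 10 genes to the right by a similar amount, so that genes near 0, such as Mylip in wild-type (-0.15, 0.01 and 0.16), change sign while Soat1, Abca1 and Ch25h do not.

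The order of levels also changed between groups. In WT control the order ran from Apoe through Soat1 (59.7 FPKM) and Abca1 (26.5) to a cluster of Lpcat3 (18.8), Nr1h2 (18.3), Abcg1 (18.3) and Mylip (17.3) whose libraries lay between 13.8 and 22, followed by Srebf1 (12.8), Nr1h3 (10.8) and Ch25h (1.02). In Nlrp3-/- LPS+ATP it ran from Apoe through Ch25h (51.9) and Abca1 (28.7) to Lpcat3 (20.1), Soat1 (19.7), Nr1h2 (17.3), Nr1h3 (16.6) and Srebf1 (15), with Mylip (9.28) and Abcg1 (5.41) last. Neighbours from Lpcat3 to Nr1h3 in that group overlapped in their libraries except Soat1 and Nr1h2. Abcg1 went from above 82% of the tested genes in WT control to above 52.9% in Nlrp3-/- LPS+ATP.

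The other genes of the pathway were taken from a list of 45, of which 40 were tested. Rxrg, Apoc4, Mlxipl, Abcg4 and Cyp46a1 were under the filter. With stimulation, 10 rose and 27 fell in wild-type BMDMs at an adjusted p under 0.05, with 14 DEGs (3 higher, 11 lower), and their median change was -0.63 beside -0.25 over all tested genes. In Nlrp3-/- BMDMs 9 rose and 30 fell, with 7 DEGs (1 higher, 6 lower), at a median of -0.47 beside -0.24. Under median-ratio scaling the counts were 10 up and 25 down in wild-type, and 10 up and 22 down in Nlrp3-/-. Beside these counts and those by role that follow, 76.4% of all tested genes passed in wild-type and 74.3% in Nlrp3-/- stimulation, in either direction. The share of all tested genes that fell is not given here. Their median change was below 0 with the FPKM as deposited (-0.25 and -0.24) and was -0.01 in both genotypes under median-ratio scaling. The DEGs stand beside 8.25% higher and 11.2% lower in wild-type and 6.64% and 8.21% in Nlrp3-/-. Among the 40 tested genes, 7 had a group in which every library was under 1 FPKM. Apoc1 reached the filter in Nlrp3-/- libraries alone, Soat2 in the stimulated libraries and 1 of Nlrp3-/- control, Pparg in the control libraries alone, and Cyp27a1 in those and 1 of WT LPS+ATP, so that in these comparisons the filter itself selected for a difference. The counts given here and by role include these genes. Pparg and Cyp27a1 were among the DEGs that were lower in both genotypes, and Soat2 among those higher in wild-type. Vldlr and Cyp7b1 were under 1 FPKM in every WT control library, and Abcg2 in every WT LPS+ATP library.

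Among the partners and co-regulators of LXR, 6 of 7 tested genes fell in each genotype, or 5 of 7 under median-ratio scaling (beside the 76.4% and 74.3% of all tested genes that passed in either direction as deposited). Pparg, a nuclear receptor that lies upstream of LXR in lipid-loaded macrophages, was among those that fell. It was between 10.8 and 11.4 FPKM in WT control and between 0.233 and 0.415 in WT LPS+ATP. In Nlrp3-/- it was between 11.2 and 12.8 in control and between 0.51 and 0.692 with LPS+ATP. The fall is given without a test, since Pparg was tested only through its control libraries.

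Of 12 tested genes among the other LXR targets, 8 fell and 2 rose in wild-type, and 10 fell and 1 rose in Nlrp3-/- (8 and 1 under median-ratio scaling). Lpl, the lipoprotein lipase, fell in both genotypes, from a mean of 180 to 27.2 FPKM in wild-type and from 151 to 21.4 in Nlrp3-/-. Arl4c, a small GTPase, fell from 17.3 to 6.13 and from 15.2 to 5.29. Pltp, the phospholipid transfer protein, fell from 106, 106 and 103 to 23.1, 25.6 and 22.6 FPKM in wild-type and from 53.8, 57.5 and 53.5 to 31.2, 31.8 and 32.2 in Nlrp3-/-. Pltp was the DEG of the interaction in this list, at 1.33 ± 0.065 (limma adjusted p = 2.04e-07), the opposite sign to that of Abcg1. Tgm2, a transglutaminase, rose from 49.6 to 130 FPKM in wild-type, a change of 1.37 ± 0.024 (limma adjusted p = 8.219e-13). Its means in Nlrp3-/- were 51 and 78.1 FPKM, and it was not a DEG there.

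The lipogenic targets Scd1, the stearoyl-CoA desaturase, and Fasn, the fatty acid synthase, were higher in Nlrp3-/- BMDMs. Scd1 stood at 13.3, 13.3 and 13 FPKM in WT control and 41.8, 44.4 and 43.6 in Nlrp3-/- control, and at 4.73, 4.54 and 4.61 and 23.9, 25.7 and 25.3 with LPS+ATP. The difference was 1.64 ± 0.038 in control (limma adjusted p = 4.888e-11) and 2.21 ± 0.038 with LPS+ATP (limma adjusted p = 7.901e-12). Fasn was a DEG with LPS+ATP, at a mean of 5.61 FPKM in wild-type and 17.3 in Nlrp3-/- (1.47 ± 0.048, limma adjusted p = 1.25e-09). In this respect these targets ran opposite to Abca1 and Abcg1, which were lower in Nlrp3-/- BMDMs. Cd5l, a scavenger protein of macrophages, was at a mean of 90.1 FPKM in WT control and 206 in Nlrp3-/- control (1.18 ± 0.047, limma adjusted p = 3.943e-09), and Apoc1, an apolipoprotein, at 0.158 and 1.98 FPKM, a difference given without a test since Apoc1 was tested only through its Nlrp3-/- libraries.

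**Figure D5:**
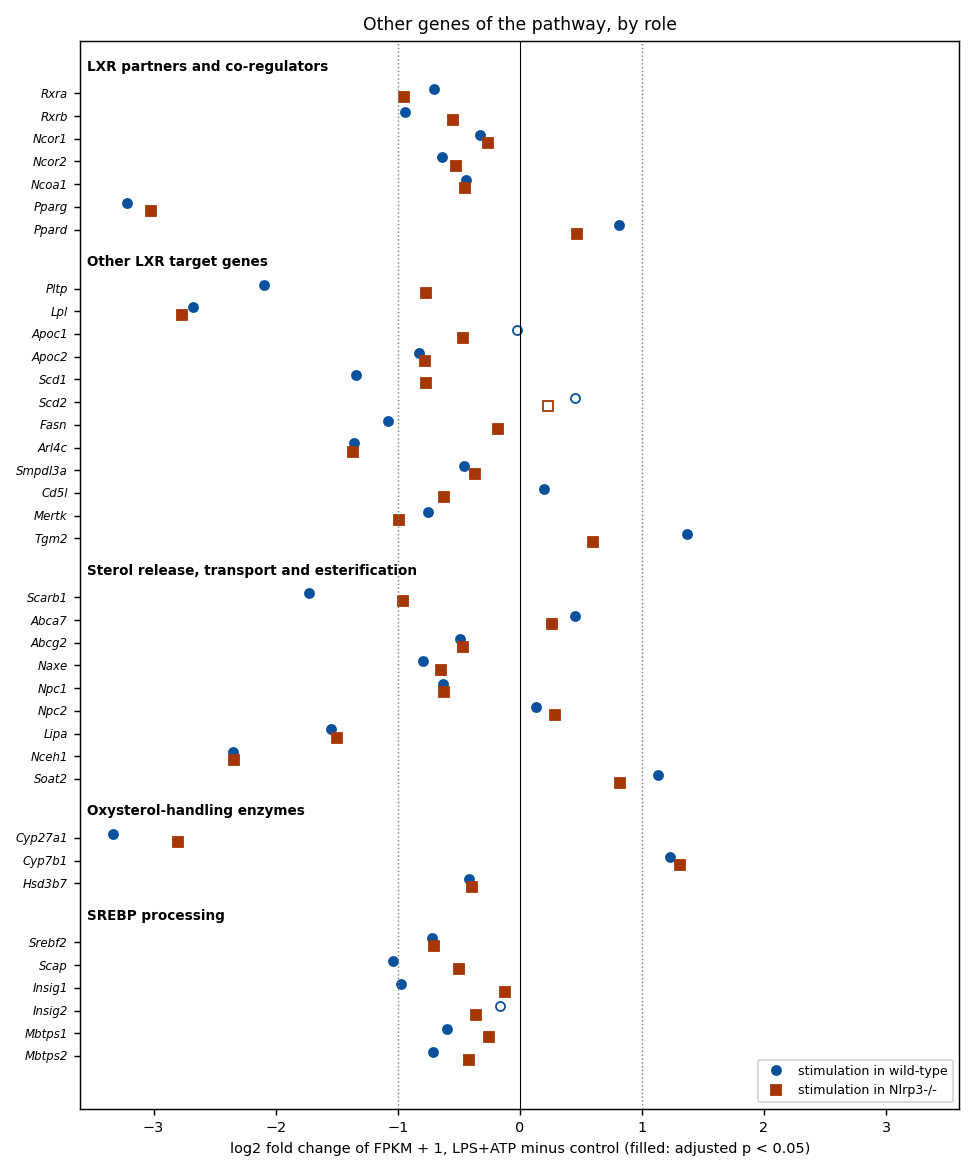
Log2 fold change of FPKM + 1 with LPS+ATP against control for 37 tested genes of the pathway list, in 5 groups by role, in wild-type (circles) and Nlrp3-/- BMDMs (squares). Filled symbols passed the test (27 lower and 7 higher in wild-type, 30 lower and 6 higher in Nlrp3-/-), and dotted lines mark the fold limit of 1. Pparg, Cyp27a1 and Soat2 are included, although the filter selected for a difference in them.

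The genes of sterol release, transport and esterification fell for 6 of 9 tested members and rose for 3 in each genotype. Nceh1, a hydrolase of stored cholesteryl esters, fell from a mean of 78.9 to 14.6 FPKM in wild-type and from 53.1 to 9.67 in Nlrp3-/-. Lipa, the lysosomal acid lipase that frees cholesterol from ingested lipoproteins, fell from 271 to 92.2 and from 220 to 76.8. Scarb1, the high-density lipoprotein receptor, was a DEG in wild-type, from 19.3 to 5.12 FPKM (-1.73 ± 0.043, limma adjusted p = 1.365e-11). In Nlrp3-/- it went from a mean of 18.6 to 9.04 FPKM and was not a DEG. Soat2, the other cholesterol esterifying enzyme, was higher with stimulation but low throughout, at a mean of 0.373 and 2 FPKM in wild-type, given without a test since it reached the filter through the stimulated libraries.

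The oxysterol enzymes moved in both directions. Cyp27a1, which makes 27-hydroxycholesterol, fell from 19.2, 16.9 and 17.1 FPKM to 1.03, 0.833 and 0.73 in wild-type. In Nlrp3-/- it fell from 10.5, 10.8 and 9.67 to 0.699, 0.54 and 0.638. Both falls are given without a test, since Cyp27a1 reached the filter through the control libraries. Ch25h, which makes 25-hydroxycholesterol, rose. Cyp7b1, which inactivates both oxysterols, was a DEG in all 4 comparisons, with means of 0.336 FPKM in WT control, 2.14 in WT LPS+ATP, 1.85 in Nlrp3-/- control and 6.03 in Nlrp3-/- LPS+ATP. The WT control libraries of Cyp7b1 were all under the filter. Its difference between genotypes in control was not called under median-ratio scaling or without Nlrp3-/- control replicate 2.

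Vldlr, the very-low-density lipoprotein receptor, was a DEG between genotypes in control cells, at 0.739, 0.745 and 0.612 FPKM in wild-type and 3.69, 3.4 and 3.33 in Nlrp3-/- (1.4 ± 0.053, limma adjusted p = 2.695e-09). All of its WT control libraries were thus under the filter. Of the 6 genes of SREBP processing, 5 fell in wild-type and 6 in Nlrp3-/-, or 5 and 2 under median-ratio scaling, where 1 rose in Nlrp3-/-. Scap, the sterol-sensing escort of SREBP, was the DEG in wild-type with the FPKM as deposited, from 6.99 to 2.88 FPKM (-1.04 ± 0.051, limma adjusted p = 5.1e-09). In Nlrp3-/- its mean went from 8.19 to 5.51 FPKM without being a DEG.

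Between genotypes, 19 of the 40 genes were higher and 12 lower in Nlrp3-/- control cells, with 5 DEGs, all higher, 1 of them Apoc1. Over all tested genes 47.8% passed, with 6.02% DEGs higher and 0.689% lower, so DEGs were mostly higher in the whole table too. Under median-ratio scaling 12 were higher and 15 lower, so the balance depends on the scaling, and Pltp then became a DEG that was lower. With LPS+ATP 20 were higher and 12 lower, with 3 DEGs, all higher, and 15 and 12 under median-ratio scaling, beside 48.5% of all tested genes passing and 4.48% DEGs higher and 0.57% lower. The interaction passed for 9 genes in the positive and 5 in the negative direction, beside 27.7% of all tested genes.

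By a fixed rule, the 3 tested genes with the highest Pearson correlation of log2(FPKM + 1) over the 12 libraries were listed for each transporter. For Abca1 they were Gm16094 (r = 0.9929), Tax1bp1 (r = 0.9909) and Fgl2 (r = 0.9875), and 64 genes were above 0.95. Tax1bp1, an adaptor of selective autophagy, had means of 26.7 and 43.9 FPKM in wild-type and 23.4 and 30.5 in Nlrp3-/-, close to those of Abca1. For Abcg1 they were Cat (r = 0.9888), Emilin2 (r = 0.9839) and Psmd8 (r = 0.9814), with 11 genes above 0.95. Cat, the catalase, ran from 170 and 171 FPKM in wild-type to 158 and 141 in Nlrp3-/-, so its pattern followed that of Abcg1 over a far narrower range.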

How the data were processed

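RNA from BMDMs was sequenced in 12 libraries (4 groups of 3). The authors deposited 1 table of FPKM per gene for all libraries. The submitters' processing notes name DESeq2 1.24.0 and build GRCm39 with no role given, and the aligner and counter are not given in the sources used here. Counts are not part of the table, so no count test was used, and 0 columns of per-sample values were left out. The 12622 of 55335 genes that reached FPKM 1 in 3 or more libraries were fitted with limma 3.58.1 (R 4.3.3; trend on, 2-sided) on log2(FPKM + 1) with 1 mean per group, and adjusted p-values are Benjamini-Hochberg over all tested genes. The script was tested on simulated data. Groups were taken from the sample titles. Each result was recomputed with a block for the replicate number, without the mean-variance trend, on only the groups compared, with every library left out in turn, after conversion to TPM, after scaling by upper quartile or by median ratio, with filters at FPKM 5 or none, and with 0.1 as pseudocount.

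The genes named were all 10 members, pathway genes that were a DEG in any comparison, and the 3 nearest patterns to Abca1 and Abcg1. Members and lists were chosen with earlier results of these data known. DR4 was searched for on both strands in RefSeq promoter windows (GRCm38.p6). No near copy of the members was found in other genes of GENCODE M21 with blastn 2.17.0+ (95% identity over 20% of the longest transcript). A symbol with several rows took its first row. As the build of the table differs from that of the annotation, coordinates are given only for the promoter stretches, where they refer to GRCm38.p6. Figures were drawn with matplotlib 3.10.9. Results for 1 gene of the pathway list are not reported here.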

Additional observations from a re-analysis of the deposited data

Results flagged for a closer look

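The stimulation change of 5 of the 10 genes differed between the 2 genotypes by the interaction term of the limma fit, with p-values adjusted over all tested genes. Of all tested genes, 27.7% passed this test. After median-ratio scaling 1 of the 10 passed in the positive and 5 in the negative direction. The terms below are for the FPKM as deposited. Abcg1 fell in Nlrp3-/- BMDMs and did not pass the test in wild-type with the FPKM as deposited, and its term was -1 (log2, limma adjusted p = 6.543e-07). Mylip had a term of -0.35 (limma adjusted p = 0.002868). Abca1 rose in both genotypes and less in Nlrp3-/-, at -0.24 (limma adjusted p = 0.001706). Ch25h rose in both genotypes and started higher in Nlrp3-/-, at -0.88 (limma adjusted p = 7.336e-05). Apoe fell more in wild-type, at 0.57 (limma adjusted p = 0.003692). Fibroblast and granulocyte markers, Xist and the Y-linked genes differed between the genotypes in the same libraries, and their part in these terms was not tested.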

How the results depend on the processing

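Of the single-gene values of the 10 genes under the alternatives, 978 kept their direction and their side of the threshold, 21 lost the test, 10 gained it and 31 changed sign. Most of the sign changes came from rescaling, whose construction adds nearly the same shift to every gene of a comparison. Under median-ratio scaling 13 values changed sign. In wild-type stimulation these were Abcg1 (0.23), Mylip (0.16), Lpcat3 (0.1) and Nr1h2 (0.28), and in Nlrp3-/- stimulation Nr1h3 (0.2), Nr1h2 (0.21), Apoe (0.04) and Lpcat3 (0.17). Between genotypes they were Nr1h2 (-0.13), Apoe (-0.02) and Srebf1 (-0.07) in control, and Srebf1 (-0.01) and Ch25h (-0.03) with LPS+ATP. Under upper-quartile scaling 7 changed sign, namely Abcg1 (0.08), Mylip (0.01) and Nr1h2 (0.13) in wild-type stimulation, Nr1h3 (0.04), Nr1h2 (0.05) and Lpcat3 (0.01) in Nlrp3-/- stimulation, and Nr1h2 (-0.06) between genotypes in control. As TPM, the wild-type stimulation change of Nr1h2 was 0.01. The other 10 sign changes were those of Nr1h2 when libraries were left out, where its values ranged from -0.21 to 0.11 in wild-type stimulation, from -0.17 to 0.15 and from -0.14 to 0.08 between genotypes in control and with LPS+ATP, and from -0.18 to 0.14 for the interaction. The libraries concerned were WT control replicates 1, 2 and 3, WT LPS+ATP replicates 1 and 3, Nlrp3-/- control replicates 1 and 3 and Nlrp3-/- LPS+ATP replicate 1.

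The counts of DEGs among the 10 genes were 1 in each stimulation comparison under upper-quartile and under median-ratio scaling, and 0 between genotypes in control under both. For the interaction they were 1 under both, and 2 as TPM or with a pseudocount of 0.1. With no fold limit they were 7, 7, 7, 8 and 5 in wild-type stimulation, Nlrp3-/- stimulation, genotype in control, genotype with LPS+ATP and the interaction. In that order, 76.4%, 74.3%, 47.8%, 48.5% and 27.7% of all tested genes passed with no fold limit. Leaving out a library gave 0 to 1 DEGs among the 10 genes for genotype in control, where Nlrp3-/- control replicate 2 removed Ch25h. For the interaction it gave 0 to 1, where 6 libraries in turn brought in Abcg1. The pathway list had 3 DEGs between genotypes in control with a filter at FPKM 5, since Apoc1 and Vldlr were then not tested, and 11 in Nlrp3-/- stimulation with a pseudocount of 0.1. Between genotypes with LPS+ATP it had 6 as TPM or with a pseudocount of 0.1, and 3 to 5 when a library was left out (5 without Nlrp3-/- LPS+ATP replicate 1). For the interaction it had 2 as TPM or with a pseudocount of 0.1. With no fold limit it had 37, 39, 31, 32 and 14, beside the same shares of all tested genes as above. Over all tested genes, a pseudocount of 0.1 gave 1344 higher and 2358 lower DEGs in wild-type stimulation, against 1041 and 1411. Upper-quartile scaling gave 1220 and 1087 there, and median-ratio scaling 1400 and 878. In Nlrp3-/- stimulation 838 higher and 1036 lower became 1094 and 605 under median-ratio scaling. Between genotypes in control 760 and 87 became 596 and 129. For the interaction 91 and 180 became 89 and 191, and 200 and 301 as TPM. Where no construction is named, the cause was not tested.

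Groups shared replicate numbers, but deviations from the group means correlated at -0.057 to 0.053 between same-numbered libraries (18 pairs, 0 over 0.1). No pairing by number was thus visible in the values. Such correlations cannot show whether same-numbered libraries came from the same animal or culture. With the replicate number as a block, the counts of DEGs among the 10 genes were 2, 3, 1, 1 and 0 in the same order, and no call was changed. Nr1h2 shows the limit that the spread of the wild-type libraries sets, and the depth in reads is unknown.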
